A study of Mus musculus with 18 samples.

Results

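A set of 8 genes of the apoptosome, the death receptors and their p53-linked partners was followed in all 18 RNA-seq libraries of Type D small cell lung cancer (SCLC) cells: Apaf1, Casp9, Cycs, Fas, Tnfrsf10b, Pidd1, Perp and Aen. They were chosen by gene name, and all 8 were found among the 25239 genes of the table and among the 12828 that passed the filter on low values. The cells were 3 mouse lines, 4711-1, 4711-18 and 4716-11, grown from lung tumours of Rb1 flox/flox; Rbl2 flox/flox mice that were also Trp53 XTR/XTR and carried a Rosa26 FlpO-ER recombinase. In every group, Cre delivered by adenovirus had been used to delete Rb1 and Rbl2 and to trap Trp53, so that p53 was off until 4-hydroxytamoxifen (4-OHT) activated FlpO-ER and removed the trap. Each line had been given a guide RNA against beta-galactosidase (sgBgal, the control guide) or 1 of a pair against Ppia, the gene of cyclophilin A (sgPpia#3.2 and sgPpia#4.1). Each of these was sampled after 72 h with vehicle (Control) or 4-OHT (Restored), which gave 6 groups of 3 libraries, 1 from each line. Type D is the name for lines that die by lysis after p53 returns. The 3 lines are the replicates of a group, and in the edited cells cyclophilin A was lowered, not absent. In such bulk samples fewer cells of a type and less RNA per cell cannot be told apart.

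In the intrinsic pathway of apoptosis, cytochrome c (encoded by Cycs) leaves the mitochondrion and binds Apaf1, which assembles into the apoptosome and activates the initiator caspase-9, and caspase-9 then cleaves the effector caspases. In the extrinsic pathway, the death receptors Fas and Tnfrsf10b (the mouse receptor for TRAIL) bind their ligands at the cell surface and activate caspase-8 through the adaptor Fadd. Pidd1 is the scaffold of the PIDDosome, which activates caspase-2, Perp is a tetraspan membrane protein of desmosomes that is linked to p53-dependent death, and Aen is a nuclease that degrades DNA and RNA in dying cells. Several of these genes are known targets of p53.

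All 8 are protein-coding genes, placed here by RefSeq on GRCm38.p6. Apaf1 lies at chr10:90989311-91082743, Casp9 at chr4:141793612-141815978 and Cycs at chr6:50562563-50566569. Fas lies at chr19:34290647-34327775 and Tnfrsf10b at chr14:69767472-69784411. Pidd1 lies at chr7:141438113-141447565, Aen at chr7:78895927-78911209 and Perp at chr10:18845071-18857073. Cycs has processed pseudogene copies in the mouse genome, so that its reads could be shared with them and its values are uncertain to that extent.

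RefSeq promoter sequences were at hand for 6 of the 8 genes: Apaf1, Casp9, Cycs, Fas, Aen and Pidd1. The 250 bases upstream of the start that the RefSeq promoter table gives are printed for the 3 parts of the apoptosome, of which 1 rose on restoration and the other two did not pass the test, and for Fas, which had the largest change. Each is read 5′ to 3′ on the strand of its gene, and the capitals mark 4 motifs searched on both strands. The GC box was searched as GGGCGG and the CCAAT box by the letters of its name. The cyclic AMP response element was searched as TGACGTCA, and the core of the NRF1 site as GCATGCGC. The windows are chr10:91082744-91082993 (minus strand) for Apaf1, chr4:141793362-141793611 (plus strand) for Casp9, chr6:50566570-50566819 (minus strand) for Cycs and chr19:34290409-34290658 (plus strand) for Fas. For Fas that start lies a few bases inside the gene span given above, and for Pidd1 it lies well inside, so that the Pidd1 window is within the gene and is not printed.

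Apaf1: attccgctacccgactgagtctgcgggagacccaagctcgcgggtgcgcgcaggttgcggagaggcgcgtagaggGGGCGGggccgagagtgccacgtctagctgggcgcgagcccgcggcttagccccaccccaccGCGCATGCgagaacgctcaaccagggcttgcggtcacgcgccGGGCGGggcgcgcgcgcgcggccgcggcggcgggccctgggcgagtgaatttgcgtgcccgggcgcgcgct
Casp9: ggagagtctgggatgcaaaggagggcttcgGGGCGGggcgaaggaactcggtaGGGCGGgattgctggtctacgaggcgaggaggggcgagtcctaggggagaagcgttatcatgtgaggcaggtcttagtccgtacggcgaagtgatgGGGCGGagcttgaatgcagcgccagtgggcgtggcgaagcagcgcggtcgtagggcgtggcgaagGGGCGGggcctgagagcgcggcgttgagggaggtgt
Cycs: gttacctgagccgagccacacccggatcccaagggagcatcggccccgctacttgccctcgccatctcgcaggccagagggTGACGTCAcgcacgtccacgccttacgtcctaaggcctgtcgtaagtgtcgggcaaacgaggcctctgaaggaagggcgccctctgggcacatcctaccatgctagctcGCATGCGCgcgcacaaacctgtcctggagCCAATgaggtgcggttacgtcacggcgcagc
Fas: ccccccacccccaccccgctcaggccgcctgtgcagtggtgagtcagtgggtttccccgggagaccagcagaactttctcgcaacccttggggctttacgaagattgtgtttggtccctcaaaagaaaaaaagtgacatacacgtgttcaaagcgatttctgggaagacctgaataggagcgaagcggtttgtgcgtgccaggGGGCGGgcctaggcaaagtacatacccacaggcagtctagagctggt

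The p53 half-site consensus, searched on both strands, was in none of the 6 windows, and 7.13% of the 32851 promoter windows of the same length held it. Casp9 had 4 GC boxes, Apaf1 and the window inside Pidd1 had 2 each and Fas had 1, and 32.7% of all windows held at least 1. Apaf1 and Cycs both held an NRF1 core, which 2.26% of all windows did, although only Apaf1 rose. Cycs also held a cyclic AMP response element, found in 1.55% of windows, and a CCAAT box, found in 33.8%, while Aen held 2 CCAAT boxes. No marked motif overlapped another in these windows.

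The libraries were deposited as TPM, a transcript abundance scaled by length and library total, which keeps no sequencing depth, and between 11485 and 12067 genes reached 1 TPM in each. Trp53 was at 5.45 to 8.41 TPM in the 9 Control libraries and 181 to 236 TPM in the 9 Restored libraries, in keeping with their labels. Ppia was at 1551 to 2849 TPM with sgBgal, 658 to 1233 TPM with sgPpia#3.2 and 1191 to 1952 TPM with sgPpia#4.1 over both states, and in Restored cells the ranges of sgBgal and sgPpia#4.1 overlapped. Of 8 neuroendocrine markers, 3 had a median above 1 TPM (Syp, Uchl1 and Ncam1), while Chga did not exceed 0.156 TPM in any library. Summed endothelial, fibroblast and lung epithelial markers did not exceed 3.40 TPM. Among 4 immune markers, Ptprc did not exceed 0.0814 TPM and Cd3e 0.159 TPM, but Cd68, a lysosomal glycoprotein, had medians of 2.69 TPM in Control and 28.0 TPM in Restored libraries. The summed immune list therefore moved from 2.95 to 7.38 TPM in Control to 22.6 to 42.6 TPM in Restored libraries, and its part in the results was not tested.

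The first comparison asked what p53 restoration did to these genes with each guide. Of the 8 genes, 6 rose with each of the 3 guides: Apaf1, Fas, Tnfrsf10b, Pidd1, Perp and Aen. Casp9 and Cycs, the other parts of the apoptosome, did not pass the test with any guide. A gene was called when the limma adjusted p was below 0.05 and the log2 fold change was at least 1 in size, on the scale of log2(TPM + 1). By the same rule 5.46% of all tested genes were called higher in the sgBgal comparison, 4.44% in that of sgPpia#3.2 and 4.3% in that of sgPpia#4.1. In these 6 genes every Restored library also lay above every Control library, as did 8.12% of all tested genes. The called genes divided into 701 higher and 279 lower with sgBgal, 570 and 168 with sgPpia#3.2, and 552 and 229 with sgPpia#4.1. All genes together had a median log2 change of 0.19, 0.17 and 0.15 in the same order. Rescaling the libraries by median of ratios brought these medians to about 0 and the divisions to 484 and 382, 416 and 239, and 414 and 292, and the same 6 members were still called with each guide.

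**Figure D1:**
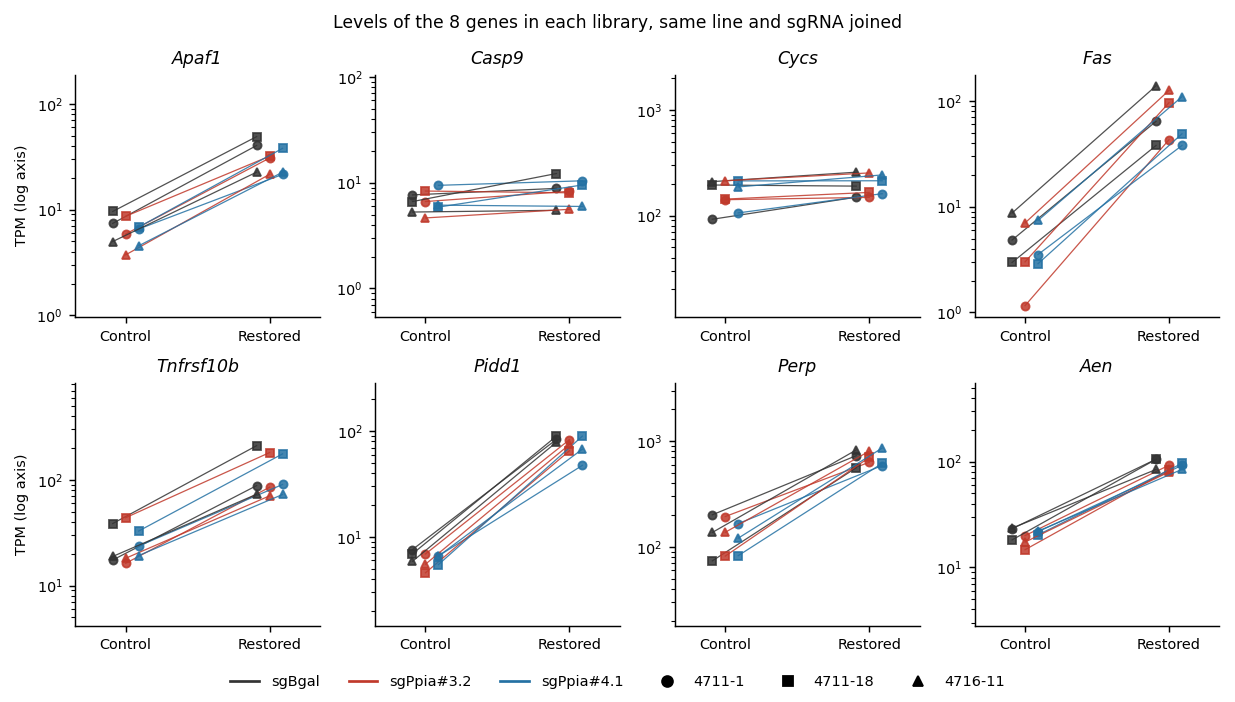
TPM (log axis) of each of the 8 genes in every library, Control on the left and Restored on the right. Lines join the libraries of the same cell line and guide, colours give the guide and symbols the line, and each panel spans the same number of log units. The Restored points of Apaf1, Fas, Tnfrsf10b, Pidd1, Perp and Aen all lie above their Control points, while those of Casp9 and Cycs overlap.

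Apaf1, the adaptor around which the apoptosome forms, was low in Control cells. With sgBgal it was at 7.41, 9.61 and 4.99 TPM in lines 4711-1, 4711-18 and 4716-11, and at 40.4, 49.1 and 22.6 TPM after restoration. With sgPpia#3.2 it went from 5.88, 8.65 and 3.74 TPM to 30.8, 32.1 and 21.6 TPM, and with sgPpia#4.1 from 6.55, 6.83 and 4.55 TPM to 21.5, 38.0 and 22.6 TPM. Every Restored value was above the highest Control value, and line 4716-11 was lowest in Control with each guide. The log2 fold changes were 2.174 ± 0.33 (SE, adjusted p = 0.00075), 2.08 ± 0.33 (adjusted p = 0.0011) and 1.99 ± 0.33 (adjusted p = 0.0016). Without line 4711-1, in the fit without a block, the adjusted p was 0.054 with sgBgal and 0.074 with sgPpia#3.2, at changes of 2.11 and 2.01. With every line kept and the cell line as a block, the adjusted p was at most 1.3e-06 with each guide.

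Casp9, the initiator caspase that the apoptosome activates, stayed between 4.64 and 9.44 TPM (median 6.63) in the 9 Control libraries and between 5.48 and 12.2 TPM (median 8.29) in the 9 Restored libraries. The ranges overlapped, and the Restored value was above the Control value in 7 of 9 pairs of the same line and guide. The log2 changes were 0.34 ± 0.29 with sgBgal (95% interval -0.27 to 0.95, adjusted p = 0.48), 0.15 ± 0.29 with sgPpia#3.2 (-0.46 to 0.77, adjusted p = 0.82) and 0.24 ± 0.29 with sgPpia#4.1 (-0.38 to 0.85, adjusted p = 0.68). Each upper bound was below 1. After rescaling by median of ratios the change with sgPpia#3.2 was -0.020.

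Cycs, the source of cytochrome c, had the highest Control median of the 8. It was at 92.3 to 213 TPM (median 187) in Control libraries and at 149 to 257 TPM (median 190) after restoration. Its 2 lowest Control values, 92.3 and 106 TPM, were both in line 4711-1, where Perp was above Cycs in all 3 Control libraries. The log2 changes were 0.32 ± 0.35 (95% interval -0.43 to 1.06, adjusted p = 0.61) with sgBgal, 0.18 ± 0.35 (-0.57 to 0.92, adjusted p = 0.83) with sgPpia#3.2 and 0.33 ± 0.35 (-0.42 to 1.07, adjusted p = 0.63) with sgPpia#4.1. A change of 1 on the log2 scale was inside the interval for sgBgal and sgPpia#4.1, and outside it with the cell line as a block (-0.08 to 0.71 and -0.07 to 0.72). After rescaling, the change with sgPpia#3.2 was -0.024.

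Ratios of the apoptosome transcripts were taken on the TPM scale, which is per transcript length. They give no balance of the proteins, which were not measured in these libraries. Apaf1 was at 0.694 to 1.45 times the level of Casp9 (median 0.946) in Control libraries and at 2.07 to 4.58 times (median 3.99) in Restored libraries. Cycs was at 12.5 to 57.1 times the level of Apaf1 (median 24) in Control libraries and at 3.69 to 11.7 times (median 5.62) in Restored libraries. Neither pair of ranges overlapped, and the share of other gene pairs with such a shift was not computed. Both ratios hold Apaf1, which rose, while Casp9 and Cycs did not pass the test. The Cycs values carry the doubt from its pseudogene copies.

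Fas, the receptor for Fas ligand, had the lowest Control median of the 8 genes and the largest change. In lines 4711-1, 4711-18 and 4716-11 it went from 4.84, 2.97 and 8.71 TPM to 64.1, 37.9 and 139 TPM with sgBgal. With sgPpia#3.2 the values were 1.16, 3.0 and 7.02 TPM in Control and 43.0, 96.3 and 126 TPM in Restored libraries. With sgPpia#4.1 they were 3.53, 2.89 and 7.41 TPM, then 37.9, 48.9 and 110 TPM. Line 4716-11 was highest in Control and in Restored libraries with each guide. The ratio of Restored to Control TPM ran from 10.7 to 37.1 over the 9 pairs (median 16.0), and the highest ratio was in the pair with the 1.16 TPM Control value. On the log2 scale Fas rose by 3.54 ± 0.60 (adjusted p = 0.0014), 4.31 ± 0.60 (adjusted p = 0.00034) and 3.50 ± 0.60 (adjusted p = 0.0017). Without line 4711-18, in the fit without a block, the change with sgPpia#4.1 was 3.41, with an adjusted p of 0.057. With every line kept and the cell line as a block, the adjusted p was at most 3.3e-06 with each guide.

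Tnfrsf10b, the TRAIL receptor, was at 17.5, 38.6 and 18.9 TPM in the sgBgal Control libraries of lines 4711-1, 4711-18 and 4716-11 and at 88.4, 211 and 73.2 TPM in the Restored ones. With sgPpia#3.2 it went from 16.3, 43.9 and 18.2 TPM to 85.3, 181 and 70.7 TPM, and with sgPpia#4.1 from 23.7, 32.8 and 19.3 TPM to 90.5, 176 and 72.8 TPM. Line 4711-18 stood above the other two in both states with every guide. The log2 changes were 2.2 ± 0.51 (adjusted p = 0.011), 2.08 ± 0.51 (adjusted p = 0.017) and 2.05 ± 0.51 (adjusted p = 0.018), and the ratio of Restored to Control TPM was 3.78 to 5.46 over the 9 pairs. These calls held with each guide without line 4711-18, but not without either of the other lines: the adjusted p was 0.13, 0.21 and 0.14 without line 4711-1 and 0.095, 0.16 and 0.16 without line 4716-11, at changes of 1.96 to 2.35. With the libraries of sgBgal or sgPpia#4.1 fitted alone the call held, and with those of sgPpia#3.2 alone the adjusted p was 0.081. With the cell line as a block all 3 adjusted p were at most 1.2e-06.

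Pidd1, the PIDDosome scaffold, was between 4.57 and 7.59 TPM in all Control libraries. After restoration, lines 4711-1, 4711-18 and 4716-11 with sgBgal were at 83.6, 89.7 and 78.7 TPM. The sgPpia#3.2 libraries of these lines were at 83, 65.2 and 74.8 TPM, and those of sgPpia#4.1 at 47.5, 89.7 and 67.6 TPM. The lowest Restored value, 47.5 TPM, was in 4711-1 with sgPpia#4.1, the library that also held the lowest Restored values of Apaf1 and Fas. Log2 fold changes were 3.45 ± 0.21 (adjusted p = 1.2e-07), 3.51 ± 0.21 (adjusted p = 1.1e-07) and 3.22 ± 0.21 (adjusted p = 3.1e-07), with ratios of 7.19 to 16.4 over the 9 pairs.

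Perp, the tetraspan membrane protein, was the most abundant of the 8 after restoration. It went from 201, 73.6 and 137 TPM to 728, 559 and 825 TPM with sgBgal in lines 4711-1, 4711-18 and 4716-11. With sgPpia#3.2 the values were 193, 81.7 and 137 TPM and then 630, 699 and 803 TPM, and with sgPpia#4.1 they were 166, 82.5 and 121 TPM and then 587, 616 and 859 TPM. Control values kept the order 4711-1, 4716-11, 4711-18 with each guide, and the Restored values did not. The log2 changes were 2.45 ± 0.37 (adjusted p = 0.00061), 2.44 ± 0.37 (adjusted p = 0.00068) and 2.51 ± 0.37 (adjusted p = 0.00055). Without line 4716-11, in the fit without a block, the adjusted p was 0.055, 0.082 and 0.074, at changes of 2.35 to 2.39. With every line kept and the cell line as a block, the adjusted p was at most 2.1e-05 with each guide.

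Aen, the nuclease, had the smallest SE among the genes that rose. It was at 14.7 to 23.4 TPM (median 20.2) in Control libraries and at 79.8 to 105 TPM (median 91.9) in Restored libraries, with ratios of 3.59 to 5.79 over the 9 pairs. The log2 changes were 2.14 ± 0.15 (adjusted p = 6.4e-07), 2.24 ± 0.15 (adjusted p = 3.7e-07) and 2.04 ± 0.15 (adjusted p = 1.1e-06).

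**Figure D2:**
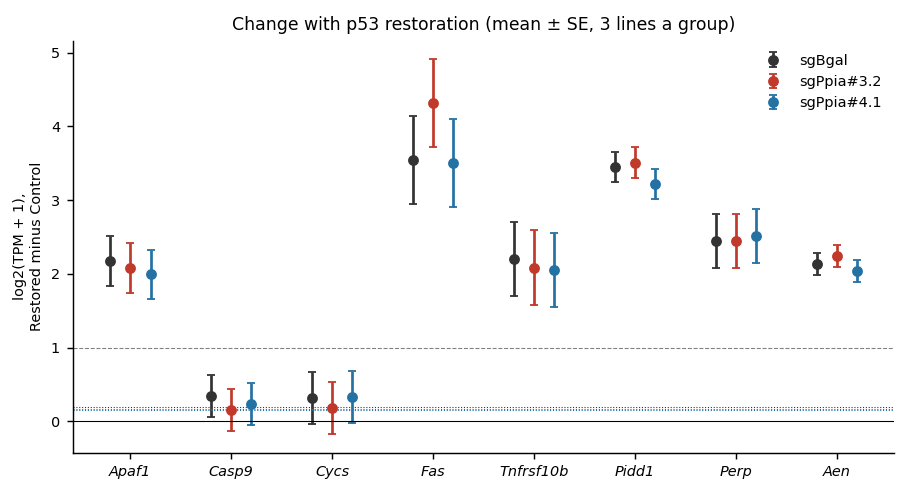
Log2 fold change, Restored minus Control on the log2(TPM + 1) scale, of the 8 genes with each guide, as mean and SE over 3 lines a group. The dashed line marks a change of 1 and the dotted lines the medians of all tested genes at 0.19, 0.17 and 0.15. The genes that rose lie at 1.99 or higher with every guide, and Casp9 and Cycs at 0.34 or lower.

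A two-sided exact permutation test of single genes, with 3 libraries a group, cannot give a p below 0.1. The exact permutation p was 0.1, the smallest it can give, for each of the 6 genes that rose, with each guide. For Casp9 the exact permutation p was 0.4, 0.7 and 0.4, and for Cycs it was 0.7, 0.5 and 0.5.

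By level, the Control medians ran from Cycs (187 TPM) and Perp (137 TPM), through Aen (20.2 TPM) and Tnfrsf10b (19.3 TPM), to Casp9 (6.63 TPM), Pidd1 (6.57 TPM), Apaf1 (6.55 TPM) and Fas (3.53 TPM). The ranges of each gene and the next in that order overlapped, save for Perp and Aen, and for Tnfrsf10b and Casp9. After restoration the order was Perp (699 TPM), Cycs (190 TPM), Aen (91.9 TPM), Tnfrsf10b (88.4 TPM), Pidd1 (78.7 TPM), Fas (64.1 TPM), Apaf1 (30.8 TPM) and Casp9 (8.29 TPM). Perp then lay apart from Cycs, Cycs from Aen, and Apaf1 from Casp9, while the other neighbours overlapped.

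The second comparison asked whether the Ppia guides changed the levels of these genes or their response to p53. None of the 8 was called in any of the 4 comparisons of a Ppia guide with sgBgal, in Control or in Restored cells, and 0% of all tested genes were called in each. At an unadjusted limma p below 0.05, 311 and 27 genes stood out in Control cells with sgPpia#3.2 and sgPpia#4.1, and 154 and 68 in Restored cells, with 0 of the 8 among them. The same fit did not call Ppia itself, at log2 differences of -1.51 ± 0.26 in Control (adjusted p = 0.47) and -1.13 ± 0.26 in Restored cells (adjusted p = 1) with sgPpia#3.2, and of -0.61 ± 0.26 and -0.44 ± 0.26 with sgPpia#4.1 (adjusted p = 1 in both). It thus missed a change of that size in the edited gene. With the cell line as a block Ppia was called with sgPpia#3.2 in both states (adjusted p = 0.0015 and 0.043) and not with sgPpia#4.1. The comparisons share their sgBgal libraries and are not independent. Differences in level between a Ppia guide and sgBgal ran from -0.57 (Fas, sgPpia#3.2 in Control) to 0.20 (Fas, sgPpia#3.2 in Restored) on the log2 scale. For Apaf1 in Restored cells the difference from sgBgal was -0.35 ± 0.33 with sgPpia#3.2 and -0.41 ± 0.33 with sgPpia#4.1 (95% intervals -1.06 to 0.37 and -1.13 to 0.30), and its adjusted p was 1 in both. In the blocked fit 3 intervals of level left out 0, none with a called gene: Apaf1 in Restored cells with sgPpia#3.2 (-0.68 to -0.01, unadjusted p = 0.042, adjusted p = 0.57) and with sgPpia#4.1 (-0.75 to -0.08, unadjusted p = 0.019, adjusted p = 0.97), and Aen in Control cells with sgPpia#3.2 (-0.58 to -0.03, unadjusted p = 0.030, adjusted p = 0.36).

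The restoration response with a Ppia guide minus that with sgBgal was likewise not called for any of the 8, and 0% of all tested genes were called in either test, where an adjusted p below 0.05 was enough. At an unadjusted p below 0.05 there were 31 genes with sgPpia#3.2 and 18 with sgPpia#4.1. The tightest intervals were those of Aen, 0.11 (-0.36 to 0.57) with sgPpia#3.2 and -0.10 (-0.56 to 0.37) with sgPpia#4.1, and of Pidd1, 0.06 (-0.57 to 0.68) and -0.23 (-0.85 to 0.39). For Apaf1 the differences were -0.09 (-1.11 to 0.92) and -0.18 (-1.19 to 0.83), and for Perp -0.01 (-1.12 to 1.10) and 0.06 (-1.05 to 1.17). Tnfrsf10b differed by -0.11 (-1.64 to 1.41) and -0.15 (-1.68 to 1.38). The widest intervals were those of Fas, at 0.77 (-1.03 to 2.57) and -0.04 (-1.84 to 1.76). In this fit a difference of 1 in response was outside both intervals for Aen and Pidd1, and inside both for Fas, Tnfrsf10b and Perp. A response lower by 1 was also inside both intervals for Apaf1 and for Cycs (-1.20 to 0.92 and -1.05 to 1.07). For Casp9 it was inside the interval with sgPpia#3.2 (-1.05 to 0.68). The fit blocked by line, which pairs the libraries, had narrower intervals: -0.81 to 0.79 and -0.74 to 0.85 for Perp, -0.59 to 0.36 and -0.63 to 0.33 for Tnfrsf10b, and -0.57 to 0.38 and -0.65 to 0.29 for Apaf1. There a difference of 1 in size was outside these intervals and that of Fas with sgPpia#4.1 (-0.96 to 0.88), and inside that of Fas with sgPpia#3.2 (-0.15 to 1.69).

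**Figure D3:**
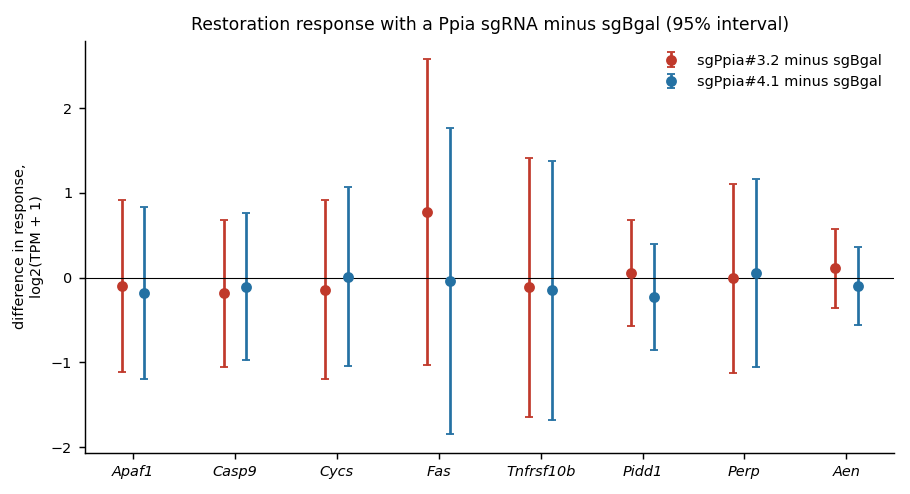
Restoration response with a Ppia guide minus the response with sgBgal for each of the 8 genes, in log2(TPM + 1), with the 95% interval of the fit without a block. All 16 intervals include 0, with the narrowest for Aen and the widest for Fas (-1.03 to 2.57 and -1.84 to 1.76).

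The third comparison took the 3 lines against each other, with the 3 guides of a line as its libraries. These libraries share 1 line and differ by guide, so that their p-values measure the spread between edited derivatives of that line. In Control cells 1 of the 8 genes was called between each pair of lines, against 9.03% of all tested genes for 4711-18 against 4711-1, 6.38% for 4716-11 against 4711-1 and 8.58% for 4716-11 against 4711-18. Perp was lower in 4711-18 (73.6 to 82.5 TPM) than in 4711-1 (166 to 201 TPM), a log2 difference of -1.22 ± 0.12 (adjusted p = 6.0e-07), with 4716-11 between them at 121 to 137 TPM. Fas was higher in 4716-11 (7.02 to 8.71 TPM) than in 4711-1 (1.16 to 4.84 TPM), by 1.17 ± 0.33 (adjusted p = 0.014), and than in 4711-18 (2.89 to 3.0 TPM), by 1.14 ± 0.33 (adjusted p = 0.015). The Fas calls did not hold without some guides: against 4711-1 the change was 0.81 without sgPpia#3.2 (adjusted p = 0.037, under the fold limit) and 1.31 without sgPpia#4.1 (adjusted p = 0.12), and against 4711-18 the adjusted p was 0.072 without sgBgal and 0.11 without sgPpia#4.1.

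Tnfrsf10b lay just under the fold limit. It was at 32.8 to 43.9 TPM in 4711-18 and at 16.3 to 23.7 TPM in 4711-1 and 18.2 to 19.3 TPM in 4716-11, so that 4711-18 differed by 0.98 ± 0.13 from 4711-1 and 4716-11 by -0.99 ± 0.13 from 4711-18 (adjusted p = 2.8e-05 in both). With a pseudocount of 0.1 both passed, at 1.01 and -1.02, and without sgPpia#4.1 they were 1.24 and -1.11. Cycs was higher than in 4711-1 by 0.69 ± 0.16 in 4711-18 (adjusted p = 0.0030) and by 0.86 ± 0.16 in 4716-11 (adjusted p = 0.00082), both under the fold limit, but the former was called at 1.03 without sgPpia#3.2. Apaf1, Casp9, Pidd1 and Aen were not called between any pair of lines.

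The response to p53 was compared between lines in the same way, with an adjusted p below 0.05 as the call. Perp was called in 2 of the 3 pairs and no other member in any, against 2.1% of all tested genes for 4711-18 against 4711-1, 1.47% for 4716-11 against 4711-1 and 2.52% for 4716-11 against 4711-18. Perp rose 3.26 to 3.63-fold in 4711-1, 7.47 to 8.56-fold in 4711-18 and 5.85 to 7.12-fold in 4716-11, so that the ranges over guides did not overlap. Its log2 response was larger than in 4711-1 by 1.17 ± 0.16 in 4711-18 (adjusted p = 0.0014) and by 0.86 ± 0.16 in 4716-11 (adjusted p = 0.013). These differences share their Control libraries with the differences in Control level. In Restored cells Perp was at 587 to 728 TPM in 4711-1, 559 to 699 TPM in 4711-18 and 803 to 859 TPM in 4716-11, so that 4711-1 and 4711-18 overlapped after restoration and not before it. With 2 guides left a line, the adjusted p for 4711-18 was 0.067 without sgBgal and 0.089 without sgPpia#4.1, and for 4716-11 it was 0.15, 0.14 and 0.36 without sgBgal, sgPpia#3.2 and sgPpia#4.1, at differences of 0.79 to 1.23.

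**Figure D4:**
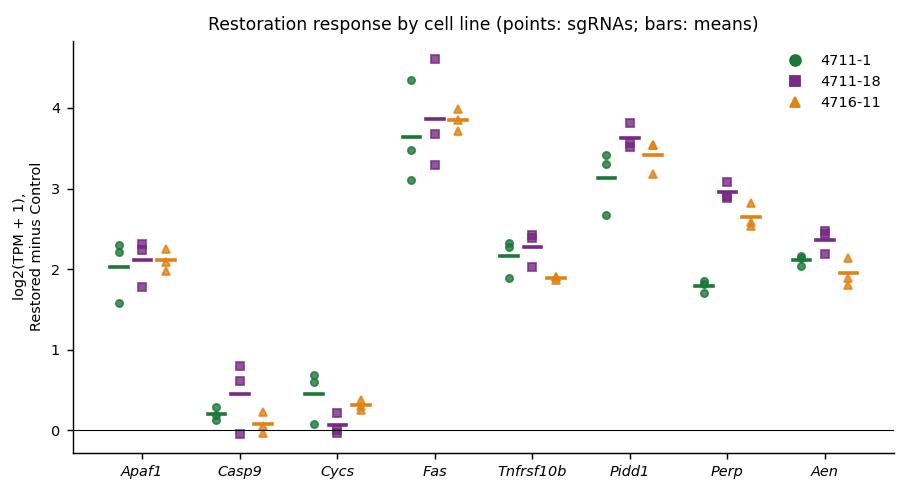
Response to p53 restoration by cell line for the 8 genes, as the log2(TPM + 1) difference between the Restored and Control library of the same line and guide. Points are the 3 guides of a line and bars their mean. For Perp the means were 1.79 in 4711-1, 2.96 in 4711-18 and 2.65 in 4716-11, with no overlap between 4711-1 and the other two.

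Genes of the same pathways were then counted from fixed lists, 55 genes beside the members and Mdm2, of which 49 could be tested. With sgBgal 5 of the 49 rose and 0 fell, with sgPpia#3.2 4 rose and 1 fell, and with sgPpia#4.1 4 rose and 0 fell. Over all tested genes 5.46%, 4.44% and 4.3% were called higher in these comparisons. Each count of genes that rose includes Eda2r, which passed the filter on low values only through the Restored libraries, where it was high, and so had to differ. Their median log2 change was 0.16, 0.16 and 0.19, beside 0.19, 0.17 and 0.15 for all genes tested.

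Among 16 tested genes of the intrinsic caspase cascade 2 rose with each guide, 1 of them Dffb, and the other 14 were not called. Dffb, the nuclease that effector caspases free from its inhibitor, went from 3.10 to 5.98 TPM to 7.79 to 14 TPM, with changes of 1.29 ± 0.23, 1.38 ± 0.23 and 1.12 ± 0.23 (adjusted p = 0.0020, 0.0015 and 0.0060). After rescaling, Dffb with sgPpia#4.1 was at 0.97, under the fold limit, and without line 4716-11 its adjusted p was 0.058 with sgBgal and 0.21 with sgPpia#4.1. The cascade's median change was -0.07, 0.06 and -0.01. The heat-shock proteins, the inhibitors of apoptosis and Diablo were among the genes not called.

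Death receptor signalling had 18 tested genes, of which 2, 1 and 2 rose. Eda2r, a receptor of the tumour necrosis factor receptor family, rose with each guide, from 0.300 to 1.98 TPM (at 1 TPM or more in 1 of 9 Control libraries) to 5.5 to 29.4 TPM, by 3.57 ± 0.47, 2.88 ± 0.47 and 2.74 ± 0.47 (adjusted p = 0.00022, 0.0013 and 0.0019). Without line 4711-18 its adjusted p was 0.053 with sgPpia#3.2 and 0.10 with sgPpia#4.1. Because Eda2r passed the filter only through the Restored libraries, these p-values and its place in the counts are no support for a change. Tnfrsf23, a decoy receptor for TRAIL in the mouse, was called with sgBgal and sgPpia#4.1, at 2.18 ± 0.48 and 1.90 ± 0.48 (adjusted p = 0.0085 and 0.022), and stood at 1.59 ± 0.48 with sgPpia#3.2 (adjusted p = 0.051). With the cell line as a block it was called with sgPpia#3.2 too (adjusted p = 0.011). Without line 4711-18 neither call of Tnfrsf23 held (adjusted p = 0.076 and 0.16), nor without line 4711-1 (0.084 and 0.097), and that with sgPpia#4.1 did not hold without line 4716-11 (0.083). Cflar, the inhibitor of caspase-8 at the receptor, was called only in that blocked fit, at 1.01 with sgBgal (adjusted p = 0.0027) and 1.08 with sgPpia#4.1 (adjusted p = 0.0022), as was the receptor Tnfrsf26 at 1.11 with sgBgal (adjusted p = 0.00095) and 1.18 with sgPpia#3.2 (adjusted p = 0.00076). The adaptor Fadd and caspase-8 (Casp8) were not called, at changes of -0.06 to 0.03 and 0.06 to 0.11. The ligands Fasl and Tnfsf10 were too low to be tested, at no more than 0.0597 and 0.0240 TPM in any library, as were Tnfrsf25, Edar and Ngfr. Relative to Fadd, Fas was at 0.0772 to 0.536 times its level in Control and 2.68 to 8.83 times in Restored libraries.

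Of the PIDDosome list, the partners of Pidd1, the adaptor Cradd and caspase-2 (Casp2), were not called with any guide. Ikbkg, the NEMO subunit that also joins a Pidd1 complex, was called with sgBgal (1.06 ± 0.30, adjusted p = 0.031) and sgPpia#3.2 (1.13 ± 0.30, adjusted p = 0.027), and stood at 0.94 ± 0.30 with sgPpia#4.1 (adjusted p = 0.061). Both Ikbkg calls fell under the fold limit after rescaling (0.85 and 0.93), and neither held without any 1 of the lines (adjusted p = 0.096 to 0.21). Mdm2, which caspase-2 can cleave and which is itself a p53 target, rose by 4.13 ± 0.27, 4.02 ± 0.27 and 3.83 ± 0.27. None of the 9 relatives of Perp and desmosome genes was called, and their median changes were 0.44, 0.45 and 0.34. With the cell line as a block, Pmp22, a relative of Perp, fell with sgBgal (-1.21, adjusted p = 0.00083) and the desmosome protein Dsp rose with sgPpia#4.1 (1.03, adjusted p = 0.0012). Of the 5 nucleases listed with Aen, Dffb rose as above, and Isg20, an RNA exonuclease, fell with sgPpia#3.2 alone (-1.06 ± 0.29, adjusted p = 0.031), at -0.94 ± 0.29 with sgBgal and -0.86 ± 0.29 with sgPpia#4.1. The Isg20 call did not hold without line 4711-1 or line 4716-11 (adjusted p = 0.19 and 0.28), and after rescaling Isg20 was called with sgBgal as well, at -1.14. The difference between guides was not called for it.

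**Figure D5:**
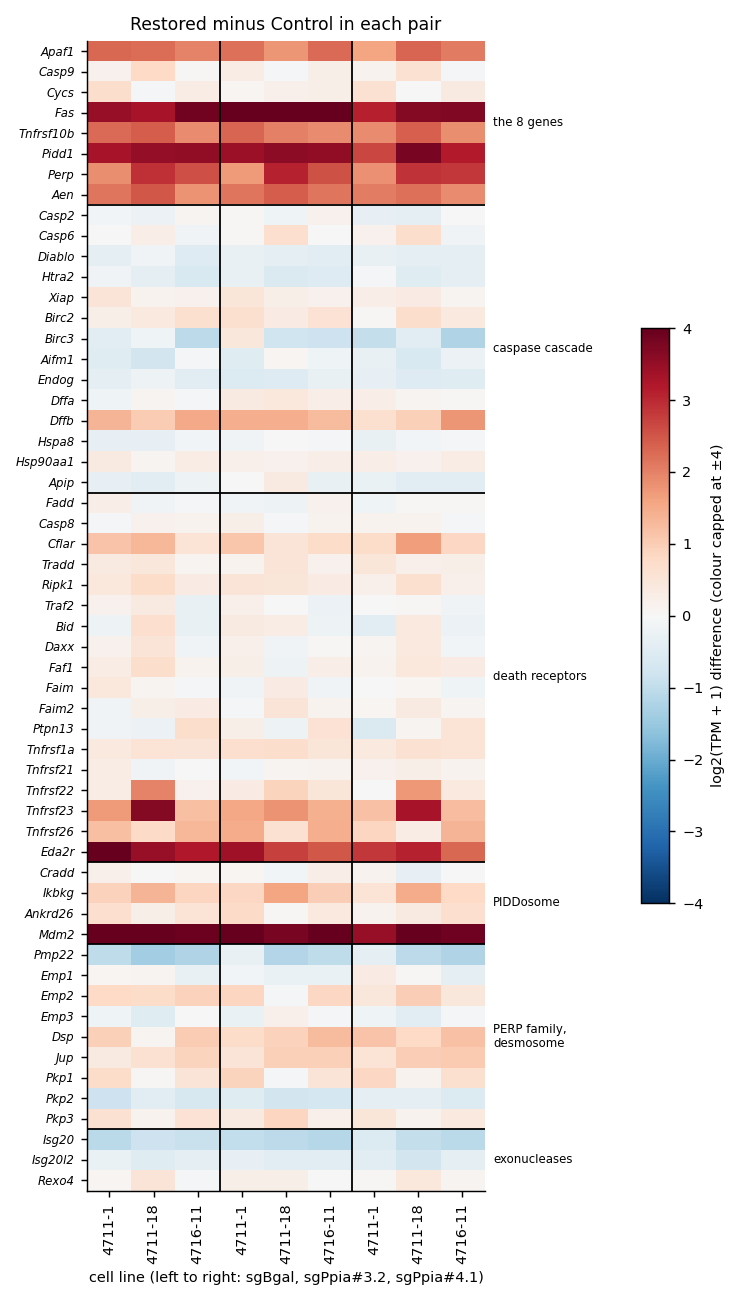
Restored minus Control difference in log2(TPM + 1) for each pair of the same line and guide (columns), for the 8 genes and tested list genes including Mdm2 (rows), with Endog and Dffb shown once under the caspase cascade. Red is higher and blue lower after restoration, and the colour is capped at 4 in size. The rows of Apaf1, Fas, Tnfrsf10b, Pidd1, Perp, Aen, Eda2r and Mdm2 are red in all 9 pairs, and those of Casp9 and Cycs are near white.

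The genes whose log2(TPM + 1) values were most alike those of each member over the 18 libraries were listed by Pearson's r, as a description. For the genes that rose, this r rests largely on the step between Control and Restored libraries, which they share with one another. Apaf1 was nearest to Elmo2 (r = 0.992), Exoc2 and Fam214a, and Fas to Acad8 (r = 0.985), Tap1 and Tbc1d8. Tnfrsf10b was nearest to Rb1 (r = 0.993), Cdip1 and Rab40c, and Perp to Btbd19 (r = 0.979) and Sbk1. Rb1 had been targeted for deletion in these lines, and the paper reports that its lines lacked RB. Its RNA was still at 3.36 to 9.44 TPM in Control and 14.6 to 30.8 TPM in Restored libraries. Whether it came from the deleted allele was not tested. Aen was nearest to Pidd1 (r = 0.989), Rgs12 and Trp53 itself, and Pidd1 to Rgs12 (r = 0.996), Slc19a2 and Ercc5. Casp9, which showed no such step, was nearest to Sun2 (r = 0.962) and Znfx1, and Cycs to the respiratory complex I gene Ndufa8 (r = 0.945), Pycrl and Nubp2.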

How the data were processed

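RNA from the 18 samples was sent by the authors to Azenta Life Sciences for library preparation and sequencing. The submitters' processing notes for these libraries name bcl2fastq 2.17 and the aligner HISAT2, with mm10 and GRCm39, and the tool that computed TPM is not given in the sources used here. The values used are the TPM deposited by the authors, in 1 table of the series, scaled to the same total in each library, so that depth is unknown and a large change in a few genes moves all others. No 2 libraries held identical values.

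Values were taken as log2(TPM + 1) for the 12828 of 25239 genes that reached 1 TPM in 3 or more libraries. Limma 3.58.1 (R 4.3.3) was fitted to all 18 libraries, once with the 6 groups as the design and once with the 6 combinations of line and state. P-values were adjusted by Benjamini-Hochberg over all genes tested, and the call was an adjusted p below 0.05 with a log2 change of at least 1, or the adjusted p alone for differences in response. Intervals are 95% intervals of each gene's fit, not adjusted. On simulated data for the sgBgal comparison, with 200 of 12828 genes changed by 2, 89% were recovered, with 5 false calls. The simulated noise was independent between libraries and held no effect of the cell line, unlike the real libraries. These figures therefore check the code, and give no error rate for these data or for the guide comparisons. Single genes were also tested by exact permutation (scipy 1.17.1, Python 3.11.15).

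Same-numbered libraries are of the same line, and deviations from the group means correlated within lines (mean r = 0.73, lowest 0.58, over 45 pairs), so the line pairs the libraries. The fit without this block is given first, and the blocked fit was an alternative, beside another pseudocount, a rescaling, 2 filters, another variance model, fits of the compared groups alone, and fits without each line or guide. The members and gene lists were chosen with earlier results of these data known. Of the lists, the genes called in all 3 restoration comparisons (at most 12) and in 1 or 2 of them (at most 6) were named, with the 3 genes most alike each member by Pearson's r. Any others were named after their values were seen. Some genes that these rules pick are not reported here. Promoters came from RefSeq (GRCm38.p6), a build that may differ from that of the table.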

Additional observations from a re-analysis of the deposited data

Results flagged for a closer look

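The response to p53 differed between lines for some of the genes, by a test of the difference itself (limma, adjusted over all genes tested, 3 guides a line). For Perp the log2 response was larger in 4711-18 than in 4711-1 by 1.17 and in 4716-11 than in 4711-1 by 0.86, and it was larger in every guide of both lines than in any of 4711-1. For the decoy TRAIL receptor Tnfrsf22 it was larger in 4711-18 than in 4711-1 by 1.32 (adjusted p = 0.029), and in 4716-11 it differed from 4711-18 by -1.18 (adjusted p = 0.046). Tnfrsf22 went from 11.9 to 23.7 TPM to 42.2 to 59.6 TPM in 4711-18, and only from 12.5 to 17.8 TPM to 15.6 to 18.1 TPM in 4711-1. For Tnfrsf23, the other decoy TRAIL receptor, the same differences were 1.44 (adjusted p = 0.048) and -1.64 (adjusted p = 0.023), with Restored levels of 120 to 184 TPM in 4711-18, 86.7 to 96.3 TPM in 4711-1 and 54.7 to 56.0 TPM in 4716-11. For Tnfrsf26 the response in 4716-11 exceeded that in 4711-18 by 0.82 (adjusted p = 0.042), on levels of 1.37 to 3.11 TPM in 4711-18, where a pseudocount of 1 weighs most. None of these 7 differences held in every fit without 1 guide: the Tnfrsf22 and Tnfrsf23 calls were lost without sgBgal and without sgPpia#4.1 (adjusted p = 0.31 to 0.68). In 4711-18 the sgPpia#3.2 Control library held the highest Control values of both, at 23.7 TPM for Tnfrsf22 and 33.9 TPM for Tnfrsf23.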

How the results depend on the processing

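The 6 restoration calls of members held with each guide under every setting that kept all 3 lines, save Tnfrsf10b with sgPpia#3.2 when its groups were fitted alone. Without 1 line 4 to 6, 4 to 6 and 4 to 5 members were called with sgBgal, sgPpia#3.2 and sgPpia#4.1, and 466 to 670, 229 to 631 and 280 to 684 genes of all tested. Fitting the compared groups alone gave 367 genes with sgPpia#3.2 and 416 with sgPpia#4.1. With a replicate block for the line 1414, 1105 and 1177 genes were called for restoration, 2 for sgPpia#3.2 in Control and 1 in Restored cells, and the block changed no call of a member. Between lines, a pseudocount of 0.1 gave 2 members for 4711-18 against 4711-1 and 2 for 4716-11 against 4711-18, and 1234 genes for 4716-11 against 4711-1 in Control. Leaving out 1 guide gave 1 to 2, 0 to 1 and 0 to 1 members in Control in the order of the report. For responses it gave 0 to 1 members and 5 to 356 genes for 4711-18 against 4711-1, 0 members and 21 to 60 genes for 4716-11 against 4711-1, and 50 to 481 genes for 4716-11 against 4711-18. In that order responses were called for 122, 80 and 180 genes with a pseudocount of 0.1 and for 172, 94 and 192 with a filter at 5 TPM, and for 55 in the first pair with the groups alone. Values that changed sign were all under the limits. With rescaling these were Casp9 (-0.020) and Cycs (-0.024) with sgPpia#3.2, Tnfrsf10b in 4716-11 against 4711-1 (0.10) and the Fas response with sgPpia#4.1 against sgBgal (0.0091). Without 1 line that Fas response ran from -0.25 to 0.13. Without 1 guide Fas in 4711-18 against 4711-1 ran from -0.39 to 0.34, Tnfrsf10b in 4716-11 against 4711-1 from -0.089 to 0.13, and Cycs in 4716-11 against 4711-18 from -0.041 to 0.34. The guide numbers did not pair libraries within the line fits (mean r = 0.09, lowest -0.49), and the guide as a block gave 360, 218 and 426 genes for the responses. The cause of these changes was not tested, and depth is unknown.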

Other observations

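The lines differed in Control cells in some of the list genes, named here after their values were seen. Cradd, the adaptor that joins Pidd1 to caspase-2, was at 6.29 to 7.38 TPM in 4711-18, 29.9 to 38.9 TPM in 4711-1 and 19.7 to 21.6 TPM in 4716-11, a log2 difference of -2.22 ± 0.12 (adjusted p = 1.2e-09) between 4711-18 and 4711-1. After restoration Cradd stayed at 5.67 to 6.28 TPM in 4711-18, while Pidd1 in the same libraries was at 65.2 to 89.7 TPM. Ptpn13, a phosphatase on the death receptor list, was at 23.5 to 32.4 TPM in 4711-18, 9.01 to 15.8 TPM in 4711-1 and 0.947 to 1.62 TPM in 4716-11. Line 4716-11 differed from 4711-18 by -3.77 ± 0.21 (adjusted p = 1.8e-09). Tnfrsf26, of the same receptor cluster as the decoy receptors, was at 1.37 to 1.61 TPM in 4711-18 and 73.3 to 105 TPM in 4711-1, a log2 difference of -5.23 ± 0.14 (adjusted p = 7.4e-13).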
